A study of Codonopsis pilosula with 12 samples.

Results

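Leaves of Codonopsis pilosula, a medicinal bellflower, were examined for transcripts of the plastid genome. Rows of the assembled transcript table were taken where the annotation carried the tag for chloroplast or plastid, or where the gene name began with psa, psb, pet, ndh, rpo or ycf or was matK. The rule also lists 2 rows by identifier, matK (DN14525_c0_g8) and rps3 (DN21156_c0_g3), and both match it by text as well. Of 55270 assembled genes, 139 matched, 10 were dropped because a best hit came from a species that is not a land plant, and 129 were retained. Seedlings of cultivar G1 (Gandang No. 1) and cultivar W1 (Weidang No. 1) grew in pots under a rain-proof shed. The 4 groups were G1 on drought day 4 (DG1), G1 on day 0 before water was withheld (CG1), W1 on drought day 4 (DW1) and W1 on day 0 (CW1), with 3 libraries each. Drought and sampling day cannot be told apart in this design. The paper's methods describe 1 pot per replicate, whereas the sample labels describe material mixed from several pots, so p-values measure only the spread between libraries.

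The plastid genome of land plants keeps a small set of genes for its own expression and for photosynthesis. Its genetic machinery includes ribosomal proteins (rpl, rps), the subunits of a bacterial-type RNA polymerase (rpoA, rpoB, rpoC1, rpoC2) and the intron maturase matK, which is encoded inside the intron of a lysine tRNA gene. The photosynthesis genes code for core subunits of photosystem II (psb), photosystem I (psa), the cytochrome b6f complex (pet), ATP synthase (atp), the NADH dehydrogenase-like complex (ndh) and the large subunit of RuBisCO (rbcL). Most photosynthesis genes are transcribed by the plastid-encoded polymerase, and a nucleus-encoded phage-type polymerase transcribes rpoB and several housekeeping genes. Plastid messengers lack the long stable poly(A) tail of nuclear messengers, and the paper's methods describe enrichment with oligo(dT) beads. The levels given are levels of captured RNA, in TPM, an abundance unit that corrects for row length and library size.

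The label of plastid-encoded transcripts held for 96 of the 129 retained rows. These 96 rows carry 49 gene names. They comprise 39 rows of genetic machinery, 54 rows of photosynthesis genes and 3 other rows (ycf15, ycf68 and a hypothetical protein). Of the 39 machinery rows, 18 belong to clpP, ycf1 and ycf2, which were counted with the machinery in all its sums and medians. Several rows are fragments of 1 gene, with 10 rows for ycf1 and 8 for ndhF, and rows of 1 gene can share reads. The lengths of the 96 rows ranged between 201 and 5380 bases. A further 15 rows are nuclear genes, 15 are mitochondrial genes whose best hit carries a chloroplast tag in Codonopsis lanceolata, and 3 rows (infA and 2 rows of accD) belong to genes that are plastid-encoded in some land plants and nuclear in others. The nuclear rows hold most of the RNA: psaD, a ferredoxin-docking subunit of photosystem I, had 1126, 3704 and 3328 TPM in DG1, against 1602, 3764 and 3172 TPM in CG1. In cultivar W1 psaD had 2621, 3944 and 4781 TPM in DW1, against 2273, 2269 and 3259 TPM in CW1. The drought and watered ranges of psaD overlapped in both cultivars. The Rieske protein petC (2 rows averaging 1286 and 845 TPM over all libraries), petM (859 TPM) and ndhL (319 TPM) were the next nuclear rows by level. The petC row DN19409_c0_g1 had 604, 1785 and 1825 TPM in DG1, against 772, 1507 and 1630 TPM in CG1, and 1086, 1369 and 1598 TPM in DW1, against 1155, 904 and 1200 TPM in CW1. The petC row DN19164_c1_g6 had 552, 1334 and 1299 TPM in DG1, against 284, 1146 and 872 TPM in CG1, and 761, 771 and 1267 TPM in DW1, against 532, 457 and 862 TPM in CW1. Both petC rows overlapped between drought and watered leaves. petM, a small subunit of the cytochrome b6f complex, had 167, 847 and 648 TPM in DG1, against 645, 1270 and 1325 TPM in CG1, and 708, 1086 and 946 TPM in DW1, against 816, 780 and 1071 TPM in CW1. ndhL, a subunit of the NADH dehydrogenase-like complex, had 187, 484 and 473 TPM in DG1, against 217, 403 and 417 TPM in CG1, and 248, 315 and 371 TPM in DW1, against 240, 191 and 282 TPM in CW1. petM and ndhL overlapped in both cultivars as well, and none of these nuclear rows was called.

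Total counts ranged between 12415229 and 22837632 per library, and the 96 plastid-encoded rows took 0.0607% to 0.313% of them. The lowest share, 0.0607% in DW1 replicate 1, had a 95% exact Clopper-Pearson interval of 0.0597% to 0.0618%, and the highest, 0.313% in CW1 replicate 1, one of 0.311% to 0.316%. These intervals cover counting error only. CW1 replicate 1 carries a drought entry among its label fields although its title and the paper's methods place it with the watered plants, so the W1 calls by edgeR are given with and without it, and the other W1 counts include it. DG1 replicate 1 stood apart: 33 leaf mesophyll markers summed to 14426 TPM there and to 66100 to 130810 TPM in the other libraries. The 20 vascular and secondary wall markers summed to 209, 340 and 325 TPM in DG1, against 603, 630 and 649 TPM in CG1, and to 335, 393 and 343 TPM in DW1, against 582, 548 and 476 TPM in CW1, apart in both cultivars. A set of 1793 rows with a vertebrate SwissProt hit and no hit in the NR protein database summed to 24467 TPM in DG1 replicate 1, against 1391 to 2425 TPM elsewhere. The 7 guard cell and epidermis markers summed to 4.47, 7.78 and 5.02 TPM in DG1, against 10.0, 20.6 and 13.6 TPM in CG1, apart in G1, and to 4.31, 8.03 and 3.69 TPM in DW1, against 17.2, 14.4 and 6.15 TPM in CW1, which overlapped. The 11 root markers summed to 162, 154 and 134 TPM in DG1, against 299, 131 and 112 TPM in CG1, which overlapped, and to 170, 172 and 139 TPM in DW1, against 216, 229 and 234 TPM in CW1, apart in W1. Each marker of these 4 lists was detected in at least 1 library. The part of these differences in the results below was not tested.

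Of the 96 plastid-encoded rows, 71 had enough counts to be tested, and in DG1 against CG1 20 were downregulated and 1 was upregulated. The calls came from edgeR's quasi-likelihood test at a Benjamini-Hochberg adjusted p under 0.05 over all 29168 genes tested. Over all genes, 23.8% were called in this comparison, 12.3% downward and 11.5% upward, whereas 28.2% of the tested plastid-encoded rows were called downward. The median log2 fold change was -1.43 over these 71 rows and 0.01 over all genes. Of the 129 retained rows, 97 were tested and 23 were called (23.7%, near the 23.8% of all genes). Of these calls 22 were downward (22.7% of the 97, against 12.3% of all genes). The 23 calls fell to 15 when either the first or the third DG1 library was left out, where 15% and 14.4% of all genes were called. In 39 of the 71 rows every DG1 library lay below every CG1 library (54.9%, against 19% of all genes). DESeq2, run as an alternative, called 30 of these rows, 27 of them downward, and 30.6% of all genes. Leaving out DG1 replicate 1, DG1 replicate 3 or CG1 replicate 1 lowered the 21 calls among plastid-encoded rows to 13 each time, all 13 downward. These were 17.3%, 17.3% and 18.1% of the plastid-encoded rows then tested, and of all genes 15%, 14.4% and 18% were called in the same fits (8.29%, 6.56% and 9.96% downward).

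Among the called rows matK fell most, and its product acts in splicing of group II introns of plastid transcripts. In cultivar G1 matK had 2.22, 4.90 and 3.33 TPM in DG1, against 65.3, 67.7 and 72.2 TPM in CG1. The G1 groups were far apart, and the 3 CG1 libraries lay close together. The log2 fold change in G1 was -4.28 ± 0.42 (SE, adjusted p = 0.000755 by edgeR). In cultivar W1 matK had 7.91, 13.6 and 6.44 TPM in DW1, against 88.0, 67.5 and 42.1 TPM in CW1. The W1 groups did not overlap either, although the CW1 libraries spread more widely than the CG1 libraries. The log2 fold change in W1 was -2.73 ± 0.39 (SE, adjusted p = 0.0256 by edgeR).

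The ribosomal protein gene rps3, which codes for a protein of the small plastid ribosomal subunit, followed the same direction. Its row had 1.41, 1.08 and 1.00 TPM in DG1, against 15.1, 8.25 and 7.59 TPM in CG1, a log2 fold change of -3.18 ± 0.33 (SE, adjusted p = 0.000829 by edgeR). In W1 it had 1.84, 1.41 and 0.76 TPM in DW1, against 9.13, 8.49 and 4.75 TPM in CW1, a log2 fold change of -2.75 ± 0.33 (SE, adjusted p = 0.0175 by edgeR). No drought library reached the lowest watered library of its cultivar. matK and rps3 were the only 2 plastid-encoded rows called downward in both cultivars, where 0.744% of all genes were. The W1 calls of both rows were lost without CW1 replicate 1 (adjusted p = 0.0747 for matK and 0.0595 for rps3), without CW1 replicate 2 (0.140 and 0.131) and without DW1 replicate 2 (0.0532 for each), and that of matK also without DW1 replicate 3 (0.0689). Over the 21 alternative settings the W1 adjusted p ranged between 7.35e-09 and 0.140 for matK and between 1.53e-12 and 0.131 for rps3, and the G1 calls of both held in all 21.

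**Figure D1:**
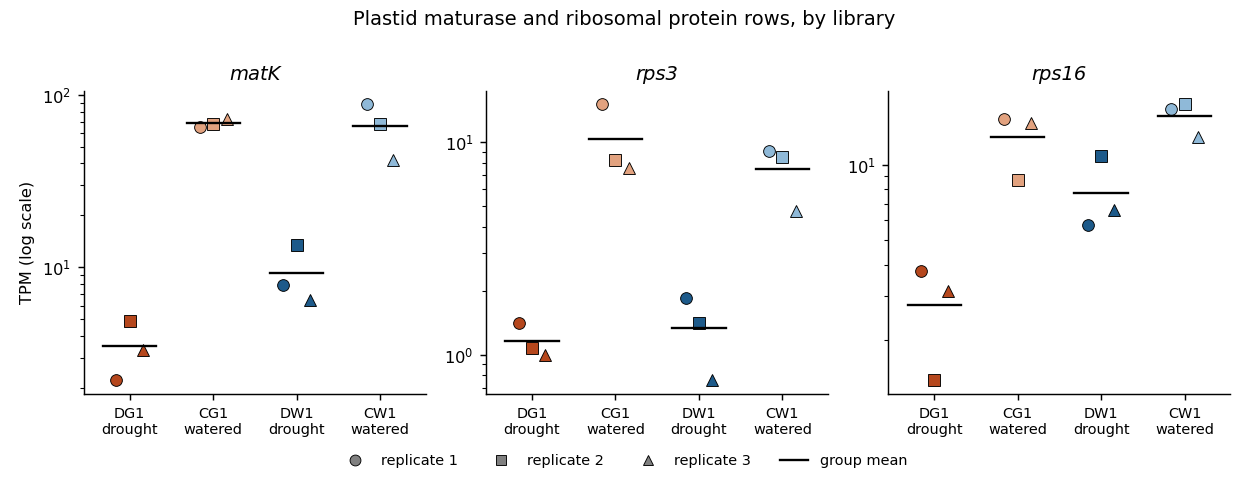
TPM on a log axis of the plastid rows matK, rps3 and rps16 in the 12 libraries, by group (points, with the group mean as a bar). All drought libraries of matK and rps3 lie below all watered libraries of the same cultivar, and for rps16 the W1 groups also lie apart but by less.

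Other ribosomal protein rows also fell in G1. Of 10 such rows, 7 were tested and 4 were called, all downward (57.1%, against 12.3% of all genes): rps3, rps16, rpl20 and rps4. rps16, a small-subunit protein gene with an intron of its own, had 3.77, 1.39 and 3.15 TPM in DG1, against 15.2, 8.67 and 14.6 TPM in CG1 (log2 fold change -2.19 ± 0.41 SE, adjusted p = 0.00514). In W1 it had 5.77, 10.9 and 6.61 TPM in DW1, against 16.6, 17.4 and 12.9 TPM in CW1 (log2 fold change -0.91 ± 0.39 SE, adjusted p = 0.214). The rps16 groups were apart in both cultivars, and only the G1 difference passed the test. The rps16 and matK rows come from 1 assembly component, and in many land plant plastid genomes these genes are neighbours. A tested rpl2 row (DN18129_c2_g5), for a large-subunit protein, pointed the other way, with 2.42, 1.33 and 2.61 TPM in DG1, against 1.17, 0.54 and 0.39 TPM in CG1 (log2 fold change 1.63, adjusted p = 0.0558). That value did not pass the test.

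The subunits of the RNA polymerase did not all go one way in DG1 against CG1. Of 10 rpo rows, 6 were tested and 3 were downregulated in DG1 against CG1 (50%, against 12.3% of all genes). These were 1 row each of rpoA, rpoB and rpoC2, and 2 of the 6 had a positive log2 fold change. rpoA, the alpha subunit, had 1.30, 1.07 and 1.27 TPM in DG1, against 4.92, 3.09 and 2.51 TPM in CG1 (log2 fold change -1.49 ± 0.35 SE, adjusted p = 0.0132). The 2 groups did not overlap. In W1 rpoA had 0.82, 1.12 and 0.76 TPM in DW1, against 2.51, 1.34 and 1.16 TPM in CW1 (log2 fold change -0.80 ± 0.35 SE, adjusted p = 0.220). The most abundant polymerase row was 1 of 4 rows for rpoC2 (DN16672_c1_g4), which codes for a part of the beta-prime subunit. It had 18.9, 26.0 and 32.9 TPM in DG1, against 16.7, 20.1 and 30.3 TPM in CG1, and its groups overlapped (adjusted p = 0.640).

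Rows of the protease subunit clpP and of the large reading frames ycf1 and ycf2, counted with the machinery, showed no common direction. ycf1 and ycf2 code for large proteins linked to import into the plastid. Of 18 such rows 12 were tested and none was called in either cultivar, with 3 at an unadjusted p under 0.05 in each, where 37.3% of all genes in G1 and 21.2% in W1 were. Their log2 fold changes in DG1 against CG1 ranged between -1.91 and 2.48 with a median of -0.48. The most abundant of them, a ycf1 row of 567 bases (DN15835_c0_g7), had 76.9, 23.4 and 42.5 TPM in DG1, against 24.2, 30.1 and 35.7 TPM in CG1. The highest value was that of DG1 replicate 1, and the groups overlapped.

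**Figure D2:**
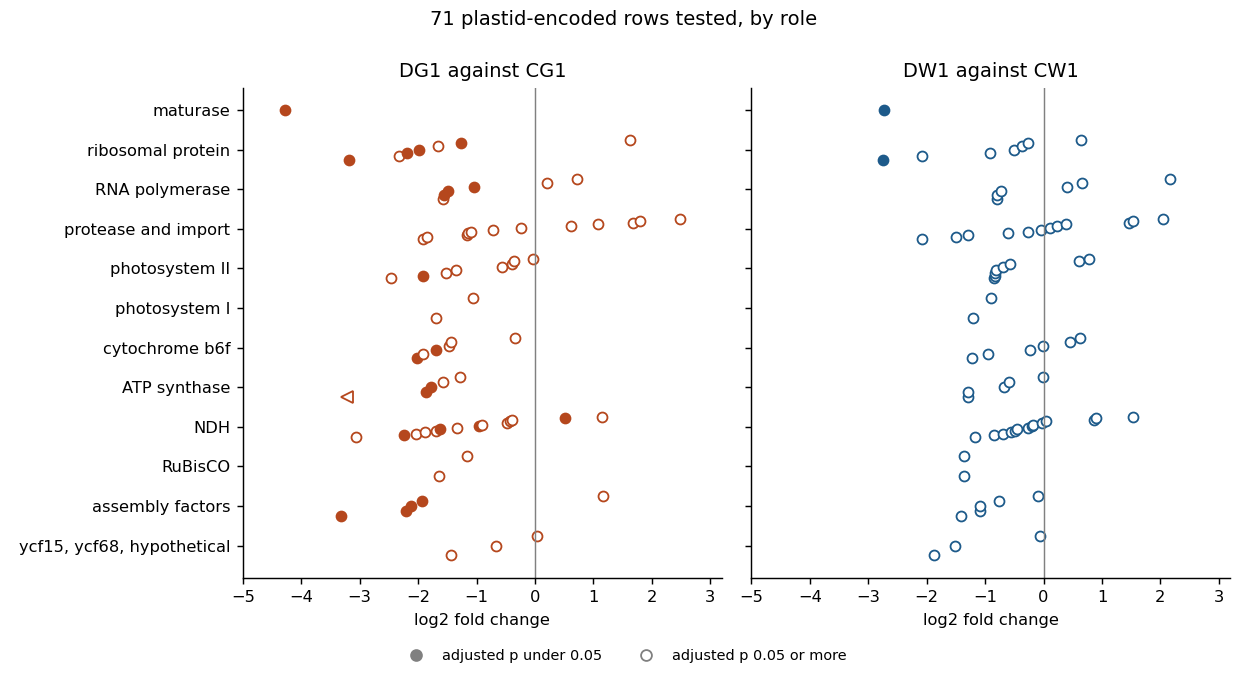
log2 fold change of the 71 tested plastid-encoded rows by role, in DG1 against CG1 on the left and DW1 against CW1 on the right, with filled points for an adjusted p under 0.05. In G1 there are 21 filled points, 20 of them below 0, and in W1 there are 2, matK and rps3. The triangle marks an atpA row with 0 counts in DG1, drawn at the bound that 3 counts allow.

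Of 54 rows of photosynthesis genes, 42 were tested, 12 were downregulated and 1 was upregulated in DG1 against CG1. The downward share was 28.6%, against 12.3% of all genes. The median log2 fold change was -1.55, and it was also -1.55 with an atpA row that had 0 counts in DG1 set at the bound of 3 counts over the group. Among genes for factors that assemble the complexes, 4 of 5 tested rows were downregulated (80%, against 12.3% of all genes). These were ycf3 and 1 row of ycf4 (photosystem I assembly), ccsA (attachment of heme to c-type cytochromes) and cemA (an envelope membrane protein). The cemA row held few counts: 1, 3 and 0 in DG1, 17, 12 and 17 in CG1, 3, 3 and 0 in DW1, and 8, 6 and 6 in CW1. The fifth, the other ycf4 row (DN14443_c0_g8), went the other way, with 3.05, 2.10 and 2.62 TPM in DG1, against 1.63, 0.55 and 1.41 TPM in CG1 (log2 fold change 1.16, adjusted p = 0.0651). It did not pass the test, although its G1 groups did not overlap. ccsA had 0.59, 0.92 and 1.09 TPM in DG1, against 2.56, 4.15 and 2.99 TPM in CG1 (log2 fold change -1.93 ± 0.46 SE, adjusted p = 0.0143). The G1 groups were apart, at levels under 5 TPM. In W1 ccsA had 0.94, 1.56 and 0.97 TPM in DW1, against 2.81, 1.49 and 1.98 TPM in CW1, which overlapped, and it was not called. The G1 call of ccsA was lost without CG1 replicate 2 (adjusted p = 0.0561, with a range of 0.000523 to 0.0561 over the 21 settings).

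In the ATP synthase, which makes ATP from the proton gradient across the thylakoid, 5 rows were tested and 2 were downregulated in G1, 1 each of atpA and atpB. That was 40% of the tested rows, against 12.3% of all genes. The longer atpA row (DN21156_c0_g2, from the same assembly component as rps3) had 7.34, 27.6 and 29.7 TPM in DG1, against 81.4, 64.4 and 96.3 TPM in CG1 (log2 fold change -1.78 ± 0.37 SE, adjusted p = 0.00776). DG1 replicate 1 was the lowest library, and the other DG1 libraries were also below every CG1 library. In W1 the row had 26.3, 22.2 and 24.3 TPM in DW1, against 101, 51.6 and 49.0 TPM in CW1 (log2 fold change -1.29 ± 0.36 SE, adjusted p = 0.0882). The W1 groups did not overlap. This W1 value passed the threshold with DESeq2 (adjusted p = 0.0153) and without DG1 replicate 1 (0.0498), and its adjusted p ranged between 0.0153 and 0.266 over the 21 settings. The other atpA row (DN14949_c0_g4) had 0 counts in DG1 and 30 in CG1, at least 3.21 lower on the log2 scale with a floor of 3 counts over the group, and was not called.

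The cytochrome b6f complex passes electrons between the photosystems, and 2 of its 6 tested rows were downregulated in G1 (33.3%, against 12.3% of all genes). petA, the cytochrome f gene (DN19577_c1_g3), had 1.14, 1.62 and 1.41 TPM in DG1, against 9.36, 4.29 and 4.38 TPM in CG1 (log2 fold change -2.02 ± 0.41 SE, adjusted p = 0.00671). petD, for subunit IV of the complex, had 4.53, 5.18 and 6.29 TPM in DG1, against 17.4, 13.4 and 21.4 TPM in CG1 (log2 fold change -1.69 ± 0.38 SE, adjusted p = 0.0111). Both rows separated the G1 groups. In W1 petA had 1.60, 4.19 and 2.02 TPM in DW1, against 4.38, 2.63 and 2.76 TPM in CW1, which overlapped (log2 fold change -0.23, adjusted p = 0.780). petD had 6.73, 7.32 and 5.35 TPM in DW1, against 25.5, 14.7 and 8.18 TPM in CW1, without overlap (log2 fold change -1.23 ± 0.38 SE, adjusted p = 0.106).

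The NADH dehydrogenase-like complex, which carries cyclic electron flow around photosystem I, was the complex with most rows. Of 25 rows 14 were tested, 3 were downregulated (ndhH, 1 row of ndhD and 1 of ndhB) and 1 was upregulated (another row of ndhB) in DG1 against CG1. The shares were 21.4% downward and 7.14% upward, against 12.3% and 11.5% of all genes. ndhH had 2.26, 1.37 and 2.20 TPM in DG1, against 8.93, 4.46 and 5.67 TPM in CG1 (log2 fold change -1.62 ± 0.32 SE, adjusted p = 0.00594). The ndhD row (DN19258_c1_g11) had 0.70, 0.54 and 0.30 TPM in DG1, against 4.41, 2.18 and 1.29 TPM in CG1 (log2 fold change -2.25 ± 0.52 SE, adjusted p = 0.0118). Neither row overlapped between the G1 groups. In W1 ndhH had 2.69, 2.22 and 2.13 TPM in DW1, against 5.67, 3.08 and 3.68 TPM in CW1, without overlap. The ndhD row had 0.59, 0.99 and 0.54 TPM in DW1, against 1.64, 0.95 and 0.72 TPM in CW1, which overlapped. Neither was called in W1. The 2 called ndhB rows went opposite ways: DN21273_c1_g1 had 5.25, 7.80 and 10.4 TPM in DG1, against 16.2, 11.5 and 13.4 TPM in CG1, while DN16868_c0_g4 had 15.7, 13.4 and 13.3 TPM in DG1, against 11.2, 8.26 and 8.70 TPM in CG1. The second was the only upward call, with a log2 fold change of 0.51 (adjusted p = 0.0401), and it lost its call in 15 of 21 settings (adjusted p between 0.00674 and 0.151). In 5 of the 15 genes with more than 1 tested row, the rows differed in the sign of the G1 fold change.

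In photosystem II, which splits water, 1 of 8 tested rows was called in G1, downward (12.5%, near the 12.3% of all genes). This row, psbK, for a small core subunit, had 2.73, 4.41 and 6.34 TPM in DG1, against 27.7, 13.8 and 12.6 TPM in CG1 (log2 fold change -1.92 ± 0.47 SE, adjusted p = 0.0148). Its groups were apart. In W1 psbK had 2.04, 5.72 and 4.34 TPM in DW1, against 9.86, 5.23 and 6.06 TPM in CW1 (log2 fold change -0.70, adjusted p = 0.408). psbA, for the rapidly replaced D1 protein of the reaction centre, was the most abundant photosynthesis row, with 132, 65.1 and 71.1 TPM in DG1, against 263, 66.1 and 70.7 TPM in CG1. In W1 psbA had 60.0, 61.7 and 50.4 TPM in DW1, against 150, 85.6 and 54.5 TPM in CW1. psbA overlapped between drought and watered leaves in both cultivars, and did not pass the test in G1 (log2 fold change -0.56, adjusted p = 0.574) or W1 (-0.83, adjusted p = 0.505).

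The TPM ratio of psbA to matK separated drought from watered leaves in both cultivars. The ratio was 59.4, 13.3 and 21.3 in DG1, against 4.03, 0.977 and 0.978 in CG1. In W1 it was 7.58, 4.55 and 7.83 in DW1, against 1.70, 1.27 and 1.30 in CW1. This pair was chosen after its values were seen, so the ratio is a description without a test.

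The 2 rbcL rows, for the carbon-fixing subunit of RuBisCO, and the long psaB row, which also spans psaA of the photosystem I reaction centre, were not called. The rbcL row DN20135_c0_g4, which matches ycf2 as well, had 22.0, 17.1 and 17.9 TPM in DG1, against 128, 33.2 and 33.6 TPM in CG1 (log2 fold change -1.64, adjusted p = 0.178). In W1 it had 5.11, 17.3 and 11.5 TPM in DW1, against 76.2, 7.24 and 9.86 TPM in CW1 (log2 fold change -1.36, adjusted p = 0.380). CG1 replicate 1 and CW1 replicate 1 were the highest libraries by a wide margin, and the other CW1 libraries lay within the DW1 range. psaB had 5.68, 2.25 and 2.55 TPM in DG1, against 25.6, 5.41 and 6.39 TPM in CG1 (adjusted p = 0.161), and 1.31, 3.52 and 3.41 TPM in DW1, against 15.9, 2.05 and 2.44 TPM in CW1 (adjusted p = 0.432).

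**Figure D3:**
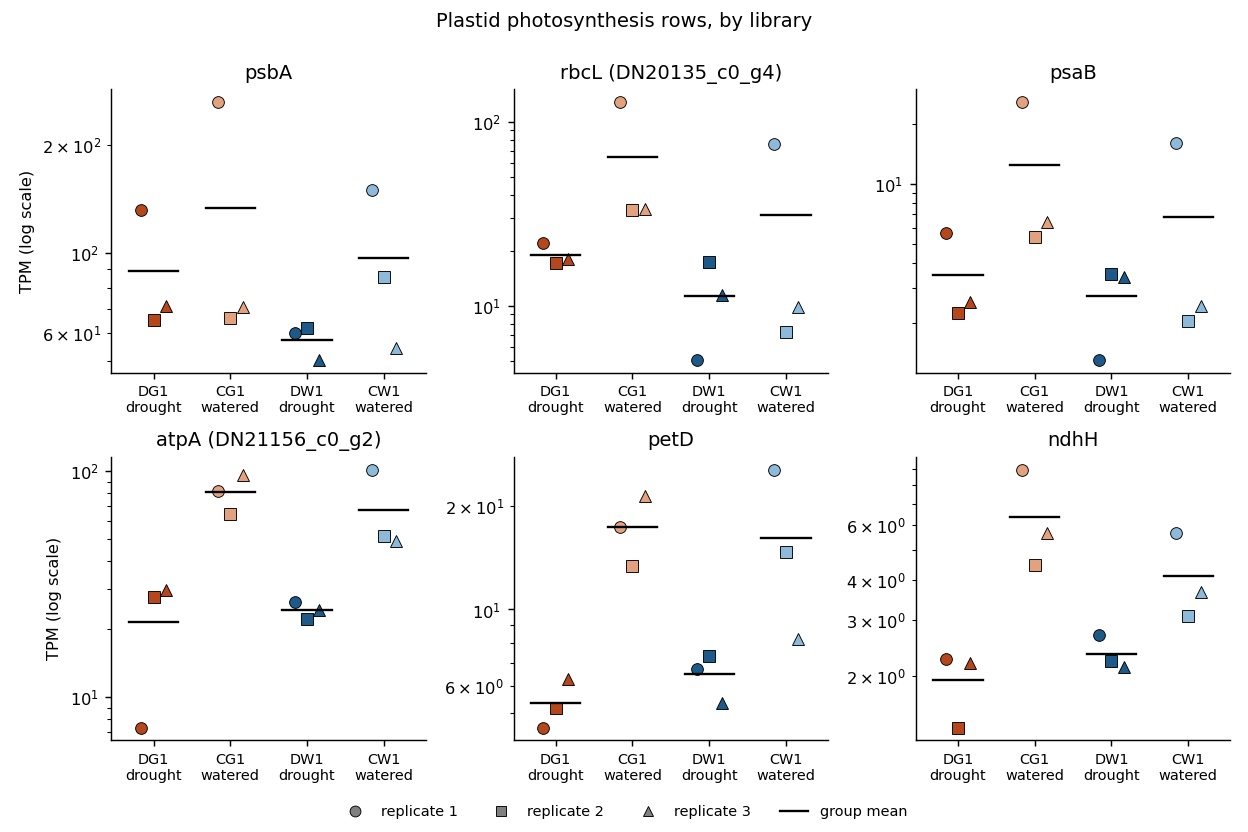
TPM on a log axis of 6 plastid photosynthesis rows in the 12 libraries, by group, with the group mean as a bar. atpA, petD and ndhH separate drought from watered leaves in each cultivar, whereas psbA, rbcL and psaB reach their highest values in replicate 1 of CG1 and overlap between DW1 and CW1.

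In cultivar W1 the drought change was called in 2 of the 71 tested rows, matK and rps3, both downward, while 1.57% of all genes were called and 0.799% downward. The median log2 fold change of the 71 rows was -0.58, against 0.02 over all genes. No photosynthesis row was called by edgeR in W1, with 4 of 42 at an unadjusted p under 0.05 (9.52%, against 21.2% of all genes). DESeq2 called 7 of the 71 rows, 6 of them downward, beside 11.4% of all genes. In 13 rows every DW1 library lay below every CW1 library (18.3%, against 13.7% of all genes), and in 11 rows this held in both cultivars (15.5%, against 7.94% of all genes). Without CW1 replicate 1, the library with the contradictory label, no plastid-encoded row was called in W1, where 1 of 31786 genes was called in all, and the median over the rows tested was -0.01.

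The first watered library of each cultivar stood high for photosynthesis rows. The median ratio of replicate 1 to the mean of the other libraries over these rows was 2.07 in CG1 and 1.99 in CW1, against 1.38 and 0.973 over all genes tested. Of the 42 tested photosynthesis rows 34 had their highest TPM of all 12 libraries in CG1 replicate 1 or CW1 replicate 1 (81%), as did 10 of 26 machinery rows (38.5%) and 21.9% of all genes tested. The 54 photosynthesis rows summed to 295, 285 and 296 TPM in DG1, against 994, 430 and 464 TPM in CG1, and to 226, 280 and 254 TPM in DW1, against 650, 297 and 259 TPM in CW1. The G1 groups did not overlap, and the W1 groups did. The 39 machinery rows summed to 201, 125 and 164 TPM in DG1, against 274, 253 and 279 TPM in CG1, and to 117, 152 and 143 TPM in DW1, against 276, 229 and 160 TPM in CW1, apart in both cultivars. Of the kinds of machinery, only matK and the ribosomal protein rows were apart in both cultivars. To the G1 sums matK alone gave 2.22, 4.90 and 3.33 TPM in DG1, against 65.3, 67.7 and 72.2 TPM in CG1. The clpP, ycf1 and ycf2 rows summed to 149.5, 67.4 and 101.6 TPM in DG1, against 96.7, 92.2 and 114.7 TPM in CG1. These sums and those of the rpo rows overlapped in both cultivars. In the same first libraries the 61 mitochondrion-encoded rows were also high, at 1217 TPM in CG1 replicate 1 and 1284 TPM in CW1 replicate 1, and DG1 replicate 1 had 2523 TPM, with 540 to 838 TPM in the others. 

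**Figure D4:**
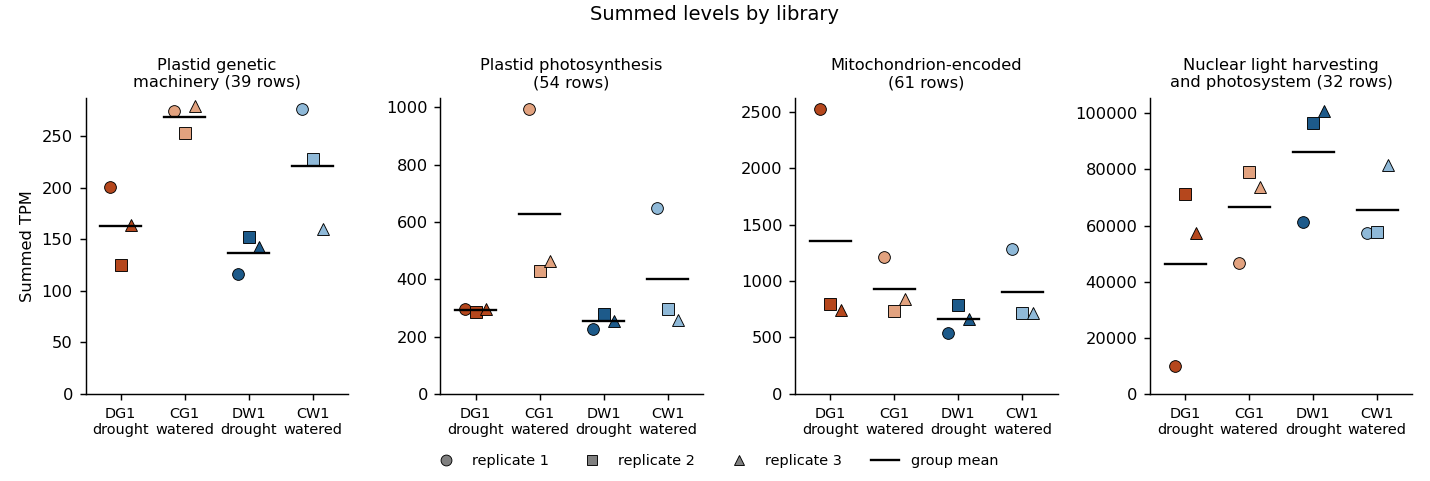
Summed TPM by library of plastid genetic machinery rows, plastid photosynthesis rows, mitochondrion-encoded rows and nuclear light harvesting and photosystem genes, with group means as bars. Replicate 1 of CG1 (994 TPM) and of CW1 (650 TPM) stands above all other libraries in the photosynthesis panel, and DG1 replicate 1 stands apart in both right-hand panels.

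With replicate 1 of CG1 and of CW1 both left out, an alternative chosen after seeing the data, 15 plastid-encoded rows were called in DG1 against CG1, all downward and all among the 21 called with every library. These were 21.4% of the rows tested, beside 16.4% of all genes. The photosynthesis median in G1 was then -0.98 and the machinery median -1.19. matK, rps3, rps16, atpA, petA, petD, ndhH, ndhD, rpoA, ccsA and psbK all kept their G1 calls. In W1 the photosynthesis median was 0.03 and the machinery median 0.21, and of the plastid-encoded rows rps3 alone was called. matK in W1 then had a log2 fold change of -2.45 and did not pass the test (adjusted p = 0.0701).

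**Figure D5:**
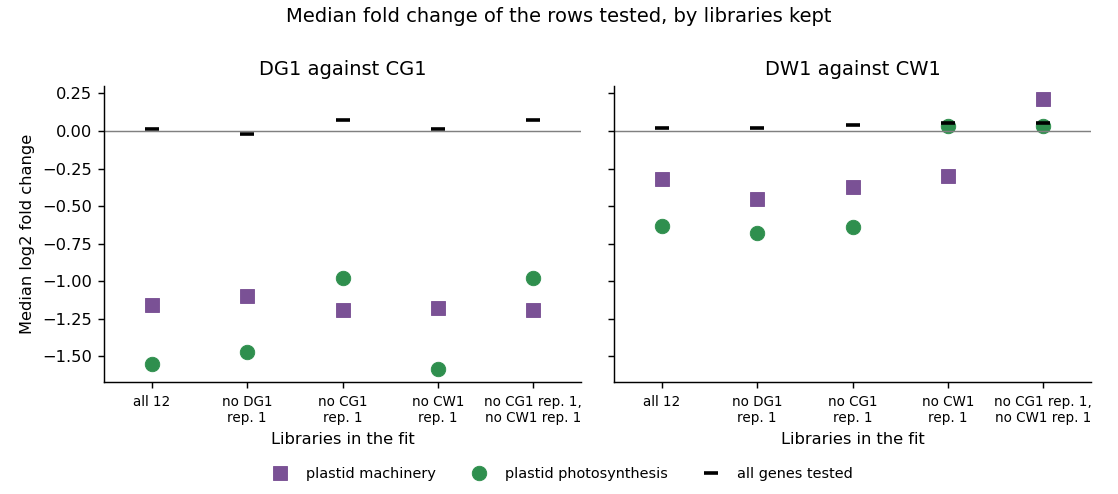
Median log2 fold change of tested plastid machinery rows, tested plastid photosynthesis rows and all genes tested, with all 12 libraries and with the named first replicates left out. In DG1 against CG1 both plastid medians stay near or below -1, and in DW1 against CW1 the photosynthesis median changes between -0.63 with all libraries and 0.03 without CW1 replicate 1.

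Cultivars were compared at each water state. In watered leaves no plastid-encoded row was called in CG1 against CW1 by edgeR (0.442% of all genes were), with 21 of 71 at an unadjusted p under 0.05 (12.8% of all genes) and 4 called by DESeq2 (4.85% of all genes). The median log2 fold change was 0.81, against -0.04 over all genes, and in 15 rows every CG1 library lay above every CW1 library (21.1%, against 6.16% of all genes). The median was 0.49 without CG1 replicate 1 and 1.10 without CW1 replicate 1. The photosystem I subunit psaI (DN13136_c1_g10) was one of these, with 9.36, 5.79 and 6.24 TPM in CG1, against 2.97, 1.15 and 1.40 TPM in CW1 (log2 fold change 2.08, adjusted p = 0.139). It was chosen after its values were seen.

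In drought leaves no plastid-encoded row was called in DG1 against DW1 by edgeR (0.00686% of all genes were), with 8 of 71 at an unadjusted p under 0.05 (16% of all genes) and 4 called by DESeq2 (4.82% of all genes). The median was 0.13, against -0.02 over all genes. For matK, DG1 libraries lay below DW1 libraries (log2 fold change -1.32 ± 0.38 SE, adjusted p = 0.194). The test of the difference between the drought effects, G1 minus W1, called no plastid-encoded row either with edgeR (0.0137% of all genes were called) or with DESeq2 (1.27%). At an unadjusted p under 0.05 it held for 11 of 71 rows (9.49% of all genes), and its median was -0.61, against -0.01 over all genes. That median was -1.15 without CW1 replicate 1 and -0.43 without CW1 replicate 3. For matK the difference of the effects was -1.55 (adjusted p = 0.431) and for rps3 -0.44 (adjusted p = 0.784). No single row passed the test for a difference between the cultivars in its drought effect.

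Nuclear genes that serve the plastid were examined beside the plastid rows. Of 34 nuclear genes for plastid ribosomal proteins, 33 were tested and 21 were downregulated in DG1 against CG1, with a median log2 fold change of -1.23, where 12.3% of all genes were called downward. None was called in W1, where 1.57% of all genes were (10 of 33 at an unadjusted p under 0.05, against 21.2% of all genes, median -0.58). Every drought library lay below every watered library in 31 of the 33 in G1 (93.9%, against 19% of all genes). In W1 this held for 26 of the 33 (78.8%, against 13.7% of all genes). The 3 most abundant, for L12, L35 and L17, were all lower in DG1. The gene for L12 (DN14826_c0_g6) had 258, 549 and 479 TPM in DG1, against 828, 1172 and 1156 TPM in CG1 (log2 fold change -1.31, adjusted p = 0.0293). RPL35 had a log2 fold change of -1.26 (adjusted p = 0.0330) and RPL17 of -1.44 (adjusted p = 0.0165). Of 21 nuclear regulators of plastid transcription and RNA, 5 were downregulated and 3 upregulated in G1, 38.1% of them beside 23.8% of all genes. None was called in W1, and 7 had an unadjusted p under 0.05 there (33.3%, against 21.2% of all genes). PTAC16, a component associated with the transcribed plastid chromosome, and CP31B, a plastid RNA-binding protein, were the most abundant and did not pass the test (adjusted p = 0.237 and 0.232), whereas a 28 kDa plastid ribonucleoprotein (DN13796_c0_g4) fell with a log2 fold change of -1.05 (adjusted p = 0.0310).

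Of 32 nuclear light harvesting and photosystem genes 1 was called in G1, downward (3.12%, against 12.3% of all genes), and none in W1, with medians of -0.72 and 0.36. In W1 1 gene had an unadjusted p under 0.05 (3.12%, against 21.2% of all genes). In G1 the log2 fold change was negative for 30 of the 32 and for 39 of the 42 tested plastid photosynthesis rows, against 14373 of 29168 genes. The difference between these lists was not tested. The 32 genes summed to 9777, 71402 and 57188 TPM in DG1, against 46571, 79088 and 73609 TPM in CG1. LHCB2.4, an antenna protein of photosystem II, had 1120, 7009 and 6853 TPM in DG1, against 4214, 7484 and 7303 TPM in CG1 (adjusted p = 0.721). Its low DG1 value belongs to replicate 1, the library in which the mesophyll markers were low. CAB40 and LHCB5 were likewise lowest in that library. None of the 32 genes had its highest TPM in CG1 replicate 1 or CW1 replicate 1.

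The row with the highest plastid level, ycf68 (DN18463_c0_g5), lies in the region of the plastid ribosomal RNA operon in land plants. It had 516, 337 and 301 TPM in DG1, against 707, 404 and 506 TPM in CG1, and 72.5, 325 and 211 TPM in DW1, against 1387, 162 and 193 TPM in CW1. The groups overlapped in both cultivars, and the row was not called (adjusted p = 0.525 in G1 and 0.256 in W1). Among the nuclear members, FATA, a thioesterase that ends plastid fatty acid synthesis, was downregulated in G1, with 10.1, 11.9 and 13.0 TPM in DG1, against 23.2, 21.4 and 19.2 TPM in CG1 (log2 fold change -0.85 ± 0.18 SE, adjusted p = 0.00907). In W1 FATA had 15.29, 13.5 and 17.57 TPM in DW1, against 20.07, 22.95 and 17.29 TPM in CW1, which overlapped (adjusted p = 0.431 by edgeR). The only other nuclear member called was INVC, an invertase, with 56.4, 54.6 and 50.8 TPM in DG1, against 97.1, 176 and 177 TPM in CG1 (adjusted p = 0.0424). The test used its counts, 1346, 949 and 916 in DG1, against 891, 5414 and 4856 in CG1. In these counts CG1 replicate 1 lay below every DG1 library. FATA and INVC were 13.3% of the 15 nuclear rows, near the 12.3% of all genes called downward. The 25 plastid-encoded rows that were too low to test averaged at most 2.62 TPM over the 12 libraries.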

How the data were processed

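RNA was sequenced from leaves of the 12 libraries (4 groups of 3). The authors assembled the reads without a genome using Trinity and deposited RSEM expected counts, which need not be whole, and TPM values per assembled gene, 1 column per library. The submitters' processing notes list a mouse genome build (GRCm38, mm10), which belongs to another species, and no coordinates were used. Columns were assigned to libraries by title. CW1 replicate 1 was kept with the watered group by its title.

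Expected counts were rounded to whole numbers. Genes were filtered with filterByExpr, scaled by TMM and fitted in edgeR 4.0.16 (R 4.3.3) with a quasi-likelihood model of 4 group means over all 12 libraries. The 5 comparisons were 2 drought effects, 2 cultivar differences and the difference between the drought effects. Calls were made at a Benjamini-Hochberg adjusted p under 0.05 over 29168 genes, without a replicate block. Standard errors (SE) were taken as the absolute log2 fold change over the root of its quasi-likelihood F value. The fit was tested on simulated data drawn with a smaller spread between libraries than was fitted here, so that test does not show its performance on these data. Summed TPM and library ratios were descriptions without a test. Alternatives were DESeq2 1.42.0, limma 3.58.1 on log2(TPM + 1) and log2(TPM + 0.1), RLE size factors, TMM without organelle genes, no count filter, a replicate block, fits of 2 groups only and leaving out libraries.

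Values by library are given for the 12 members with the smallest adjusted p in any comparison, the 6 with the highest mean TPM and the 2 listed by identifier. psbA, rbcL, psaB, rpl2, rpoC2, ycf1, psaI, ndhB, INVC, the atpA row with 0 counts and the mitochondrial rows were named after their values were seen. For nuclear lists the 3 most abundant genes were named. Members and lists were chosen with earlier results of these data known. Sequences were not analysed here.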

Additional observations from a re-analysis of the deposited data

Results flagged for a closer look

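Of the 10 rows dropped by the species step, 1 was high in a single drought library. In both cultivars, 1 had every drought library above every watered library of its cultivar, and 1 had every drought library below. Among all genes tested, 7.94% lay below in this way in both cultivars. The first, a row whose SwissProt hit is human MT-ND2 (DN13303_c1_g18), a mitochondrial NADH dehydrogenase subunit, had 189 TPM in DG1 replicate 1 and 2.83 to 9.07 TPM in the other 11 libraries. DG1 replicate 1 is also the library in which rows with a vertebrate hit summed highest.

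The second, a row for ycf45 (DN18030_c2_g1) named after a reading frame of algal plastid genomes, had 46.2, 34.9 and 41.2 TPM in DG1, against 23.8, 16.8 and 17.2 TPM in CG1. In W1 it had 41.6, 61.8 and 52.2 TPM in DW1, against 35.8, 27.6 and 34.8 TPM in CW1. Its mean was 40.7 TPM in DG1 and 51.9 TPM in DW1. The third, a ycf23 row (DN14685_c0_g2), had 110, 213 and 216 TPM in DG1, against 352, 467 and 470 TPM in CG1. In W1 the ycf23 row had 188, 270 and 255 TPM in DW1, against 429, 379 and 294 TPM in CW1. No test was run on the dropped rows.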

How the results depend on the processing

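Of the 129 retained rows, 23 were called in DG1 against CG1 by edgeR, 34 by DESeq2, 23 with RLE size factors or with TMM without organelle genes, 21 without the count filter and 17 and 18 by limma with a pseudocount of 1 and 0.1. In the same order these settings called 23.8%, 30.6%, 23.9%, 23.8%, 9.51%, 17.5% and 17.8% of all genes. In DW1 against CW1 2 were called, 8 by DESeq2 and 0 in a fit of those groups only, beside 1.57%, 11.4% and 0.00385% of all genes. DESeq2 called 5 in CG1 against CW1 and 8 in DG1 against DW1, where edgeR called 0. Over all genes DESeq2 called 4.85% and 4.82% in these comparisons. With replicate 1 of CG1 and of CW1 both left out, 18 were called in DG1 against CG1, 1 in DW1 against CW1, 1 in CG1 against CW1 and 1 in the difference between drought effects. Of all genes 16.4%, 0.128%, 2.51% and 0.515% were called there. Leaving out 1 library at a time gave 15 to 24 calls in DG1 against CG1, 0 to 3 in DW1 against CW1, 0 to 1 in CG1 against CW1, 0 in DG1 against DW1 and 0 to 1 in the difference between drought effects, where the single calls were INVC without CG1 replicate 1. Those fits called 12.5% to 22.9% of all genes in DG1 against CG1 and 0% to 5.98% in DW1 against CW1. petA in W1 (log2 fold change -0.23, range -0.77 to 0.05 over left-out libraries) turned to 0.05 without DW1 replicate 1, 0.04 without CW1 replicate 1 and 0.04 without both first watered libraries, and the ndhB row DN16868_c0_g4 in W1 (-0.02, range -0.13 to 0.10) to 0.05 without DW1 replicate 1 and 0.10 without CW1 replicate 2. None of these passed the test, and the cause was not tested. petD in W1 passed with DESeq2 (adjusted p = 0.0258), and rpoA in G1 did not with limma and a pseudocount of 0.1 (adjusted p = 0.0518). matK and rps3 in W1 did not pass in the fit of 2 groups only (adjusted p = 0.0775 for each).

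The groups share replicate numbers, and with a replicate block 21 of the retained rows were called in DG1 against CG1, 2 in DW1 against CW1 and 0 in the other comparisons. With that block 21% of all genes were called in DG1 against CG1 and 2.04% in DW1 against CW1. The correlation of deviations between same-numbered libraries lay between -0.177 and 0.27 over 18 pairs, with 3 over 0.1. Of 12 libraries, 5 correlated best with their own number. Whether same-numbered libraries share more than the number was not tested. Many plastid rows lay at a few TPM, where fold changes rest on few counts.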

Other observations

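Of the 15 retained mitochondrial rows 8 were tested. Of these, 0 were called by edgeR in either drought comparison, with a median log2 fold change of 0.87 in DG1 against CG1 and -0.84 in DW1 against CW1. In each, 1 had an unadjusted p under 0.05 (12.5%, against 37.3% of all genes in G1 and 21.2% in W1). In DG1 against DW1 5 of the 8 had an unadjusted p under 0.05 (62.5%, against 16% of all genes). None was called there, and the median log2 fold change was 2.02. A mitochondrial RPS3 row (DN13497_c0_g1), for a protein of the small mitochondrial ribosomal subunit, had 3.78, 4.50 and 1.60 TPM in DG1, against 0.09, 0.45 and 0.12 TPM in DW1. These groups did not overlap (log2 fold change 3.96 ± 1.06 SE, adjusted p = 0.178 by edgeR). The 3 rows whose genes are plastid-encoded in some land plants and nuclear in others were not called. infA, a translation initiation factor, had 40.2, 56.4 and 55.7 TPM in DG1, against 63.5, 99.5 and 90.7 TPM in CG1 (log2 fold change -0.79, adjusted p = 0.0660 by edgeR). Its G1 groups did not overlap. The longer accD row (DN20729_c0_g6), for a subunit of acetyl-CoA carboxylase, had 54.2, 59.1 and 56.6 TPM in DG1, against 46.3, 52.8 and 48.5 TPM in CG1 (log2 fold change 0.20, adjusted p = 0.532 by edgeR).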
